A study of Mus musculus with 11 samples.

Results

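The microRNAs described here are 4 mature members of the miR-101 and miR-128 families: mmu-miR-101a-3p, mmu-miR-101b-3p, mmu-miR-128-3p and mmu-miR-128-1-5p, written without the mouse prefix mmu where that is clear. They were chosen by name, and every hairpin row that carries one of these names was kept apart, which gave 5 rows of the 2128 rows and 4 of the 1978 mature names in the deposited table. miR-128-3p has 2 of these rows because both of its hairpins release the same mature sequence. All 5 rows passed the filter on low counts. Small RNA was sequenced in 11 libraries of mouse splenic CD8+ T cells in 4 groups. For Clean_TN replicates 2 and 3 were used, and every other group (Clean_VM, Dirty_TN, Dirty_VM) had 3 libraries. Cells of every group were CD4-, CD8+, CD49dlo and GFP+, taken from CD8a bead selection. TN cells (true naive in this field's usage) were the CD44lo fraction. VM cells (virtual memory, cells with a memory-like surface that have not met foreign antigen) were the CD44hi fraction. The labels call both subsets stamped and the mice clean or dirty, and they give no strain, age, definition of dirty or origin of the GFP. Nothing in the labels says that replicates were separate animals, so p-values here measure the spread between these libraries, which may be technical.

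A miRNA guides Argonaute to messenger RNAs through its seed, the bases near its 5′ end, and lowers the output of the paired transcripts. miR-101 is known for repressing Ezh2, the methyltransferase of Polycomb repressive complex 2, and has been linked to the control of the T cell costimulator Icos. miR-128 is best known as a brain miRNA, made from hairpins inside the introns of R3hdm1 and Arpp21, and represses the Polycomb gene Bmi1 among others.

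The mature sequences are shown because the miR-101 members differ by very few bases, which decides how their reads can be told apart. All 4 names matched RefSeq (GRCm38.p6, the assembly also called mm10). Capitals mark the seed, bases 2 to 8 counted from the 5′ end.
miR-101a-3p: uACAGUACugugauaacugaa
miR-101b-3p: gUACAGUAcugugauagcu
miR-128-3p: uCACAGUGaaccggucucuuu
miR-128-1-5p: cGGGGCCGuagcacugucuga

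miR-101b-3p starts 1 base upstream of miR-101a-3p in an ungapped alignment, so its annotated seed is shifted by 1 base. Over the 18 aligned positions 17 were identical, and the only substitution was A16G, with positions counted from 1 at the 5′ end of miR-101a-3p. miR-101c, another listed family member, is identical to miR-101a-3p over all of its 19 bases. Counts of miR-101a-3p, miR-101b-3p and miR-101c held fractional values, and how reads that fit several rows were divided is not given in the sources used here. Levels of these close copies are therefore uncertain.

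The hairpins lie at 4 separate places in GRCm38, with the annotation of GENCODE M21. In the lines that follow, capitals mark the 5p and 3p mature arms inside each RefSeq hairpin.
Mir101a (chr4:101346945-101347027, minus strand): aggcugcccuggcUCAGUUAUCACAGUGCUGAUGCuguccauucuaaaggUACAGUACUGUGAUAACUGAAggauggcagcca
Mir101b (chr19:29135279-29135375, plus strand): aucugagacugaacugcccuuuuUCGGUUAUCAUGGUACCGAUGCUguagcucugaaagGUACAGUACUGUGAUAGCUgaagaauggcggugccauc
Mir128-1 (chr1:128202361-128202430, plus strand): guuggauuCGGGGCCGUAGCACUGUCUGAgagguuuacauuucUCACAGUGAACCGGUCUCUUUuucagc
Mir128-2 (chr9:112118636-112118711, minus strand): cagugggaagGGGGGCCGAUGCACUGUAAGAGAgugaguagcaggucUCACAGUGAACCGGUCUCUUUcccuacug

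Mir101a overlaps an exon of the long noncoding RNA gene E130102H24Rik on the same strand. Mir101b lies in an intron of Rcl1, Mir128-1 in an intron of R3hdm1 and Mir128-2 in an intron of Arpp21, each on the strand of its host gene. The miR-128-3p sequence is the same in both of its hairpins, which differ from the first base after it onward.

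Library totals ran from 2614396 to 16312004 estimated counts, with 5 shallow libraries (totals up to 4116012) and 6 deep ones, and each group held both kinds. Levels are CPM, each count divided by its library total and scaled up to a common total, on totals scaled by the trimmed mean of M values (TMM). The floor was set at 3 counts, so that a miRNA listed at 0 could hold at most 0.18 CPM in the deepest and 1.23 CPM in the shallowest library, for counting error only. All 5 listed lymphocyte miRNAs averaged 10 CPM or more and together held 75300 to 147000 CPM in a library. Most of this sum was miR-150-5p, at 66200 to 134000 CPM. All 6 neuronal miRNAs stayed below that mean, with summed levels of 0.411 to 2.41 CPM, and miR-124-3p, the defining neuronal miRNA, reached at most 0.0911 CPM. The 2 myeloid miRNAs summed to at most 3.61 CPM.

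Of these members miR-128-3p was the most abundant. Summed over its hairpins it ranked 21 to 34 among the mature names of a library, miR-101b-3p ranked 38 to 51 and miR-101a-3p ranked 47 to 87. miR-128-1-5p, the other arm of Mir128-1, ranked 259 to 353, with 11 to 72 counts in a library. Across all libraries miR-101b-3p had the narrowest range, 1027.3 to 1795.8 CPM or 1.75-fold, and the other rows varied by 2.87-fold to 3.15-fold.

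**Figure D1:**
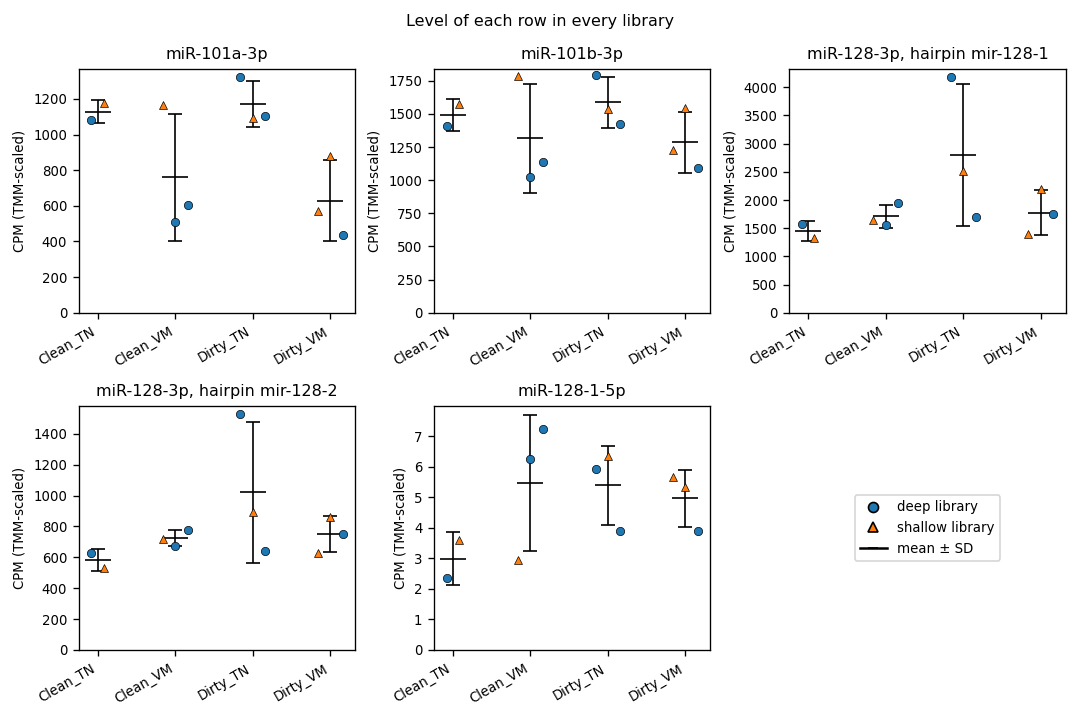
Level of each row (CPM on TMM-scaled totals, y axis) in the 4 groups (x axis). Points are libraries, blue circles for deep and orange triangles for shallow ones, and bars give the mean ± SD. For miR-101a-3p the TN libraries sit between 1083.0 and 1322.6 CPM, and the VM libraries spread from 437.2 to 1166.3 CPM.

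The first comparison asked which members differ between VM and TN cells. miR-101a-3p fell in VM cells averaged over clean and dirty mice. The level of mmu-miR-101a-3p was 1083 and 1174 CPM in Clean_TN replicates 2 and 3, and 1166, 510 and 602 CPM in Clean_VM replicates 1, 2 and 3. In Dirty_TN replicates 1, 2 and 3 it was 1323, 1093 and 1103 CPM, and in Dirty_VM 571, 881 and 437 CPM. The dirty groups did not overlap, while in clean mice Clean_VM replicate 1 lay within the TN range and the other VM libraries lay far below it. The share of all rows without overlap is not given here.

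Averaged over both environments the log2 change of miR-101a-3p was -0.74 ± 0.23 (SE, 95% interval -1.23 to -0.24, edgeR quasi-likelihood adjusted p = 0.035), a level 0.6 times that of TN cells. It was the 1 member row of 5 called in this comparison, against 23.7% of the 545 rows called, 12.3% lower and 11.4% higher. The 5 rows had a median log2 change of -0.21, the value of the mir-128-1 row, beside 0.09 over all rows. They are not independent, since miR-128-3p is counted on both of its hairpin rows. Within clean mice alone miR-101a-3p had -0.57 ± 0.34 (edgeR adjusted p = 0.263) and within dirty mice alone -0.90 ± 0.31 (adjusted p = 0.0846), so neither passed, and the interaction between subset and environment was -0.33 ± 0.46 (adjusted p = 0.802). No member row was called in clean mice, where 17.4% of rows were called (9.72% higher and 7.71% lower), nor in dirty mice, where 12.1% were (6.24% higher and 5.87% lower). In clean mice none of the 5 had an edgeR unadjusted p under 0.05, against 30.6% of all rows, and DESeq2 called none of the 5, against 21.5% of all rows. In dirty mice 2 of the 5 did, against 25.0% of all rows, and DESeq2 called 1, against 16.1% of all rows. That 1 was miR-101a-3p (-0.90, DESeq2 adjusted p = 0.0227). Without Clean_TN replicate 2 the averaged change was -0.78 and missed the threshold (edgeR adjusted p = 0.0685). In clean mice miR-101a-3p passed without Clean_VM replicate 1 (-0.97, adjusted p = 0.038). In dirty mice it passed without Dirty_VM replicate 2 (-1.27, adjusted p = 0.0156), Clean_VM replicate 1 (-0.94, adjusted p = 0.0215) or Clean_VM replicate 2 (-0.93, adjusted p = 0.0351), and without the filter on low counts (-0.91, adjusted p = 0.00213).

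The size of this fall differed between the depth classes, which hold few libraries of each group. Averaged over environments, the VM minus TN difference in mean log2 level of miR-101a-3p was -0.32 for shallow libraries and -1.22 for deep ones. In dirty mice it was -0.62 and -1.47, and in clean mice -0.01 and -0.97. The value of -0.01 compares Clean_VM replicate 1 with Clean_TN replicate 3 alone. Clean_TN replicate 2, Dirty_TN replicate 2 and Dirty_VM replicate 3 were likewise alone for their group in their class. Whether depth itself or the spread between libraries made this gap was not tested. With the depth class as a term in the edgeR fit the averaged change was -0.85 (adjusted p = 0.00668), and the change in dirty mice was -1.12 and passed (adjusted p = 0.0161). Markers of other cells also moved between the groups. The 5 erythroid miRNAs summed to 129 to 261 CPM in Clean_VM and 122 to 200 in Dirty_VM, against 59.9 to 76.8 in Clean_TN and 69.2 to 148 in Dirty_TN, and 3 of them averaged 10 CPM or more, while miR-144-3p, a defining one, reached at most 0.501 CPM. The 2 endothelial and platelet miRNAs summed to 21.7 to 47.7 CPM in Clean_VM and 29.6 to 53.0 in Dirty_VM, against 18.4 to 19.3 and 15.3 to 29.7 in the TN groups. The 4 hepatocyte and muscle miRNAs, almost all of it the liver miRNA miR-122-5p, summed to 1220 to 2760 CPM in Clean_VM and 1250 to 2490 in Dirty_VM, against 860 to 1090 and 928 to 1840. The part of these markers in the miR-101a-3p result was not tested.

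mmu-miR-101b-3p, the paralog with the A16G base, did not pass. It stood at 1406 and 1575 CPM in Clean_TN, 1785, 1027 and 1134 in Clean_VM, 1796, 1538 and 1425 in Dirty_TN and 1225, 1543 and 1091 in Dirty_VM, each in replicate order. VM and TN libraries overlapped in both environments. Its averaged log2 change was -0.24 ± 0.17 (95% interval -0.60 to 0.12, edgeR adjusted p = 0.321), with -0.18 in clean and -0.30 in dirty mice. Adding miR-101a-3p, miR-101b-3p and miR-101c into 1 row, so that the division of reads among these rows does not matter, gave -0.45 ± 0.18, and this sum did not pass (edgeR adjusted p = 0.0875). That alternative was chosen after seeing the data.

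The balance between the counts assigned to the paralogs differed between the subsets. miR-101b-3p made up 56.5% and 57.3% of the summed counts of miR-101a-3p and miR-101b-3p in Clean_TN, and 57.6%, 58.5% and 56.4% in Dirty_TN. In VM cells it made up 60.5%, 66.8% and 65.3% in Clean_VM and 68.2%, 63.6% and 71.4% in Dirty_VM. All 6 VM libraries lay above all 5 TN libraries, and the TN libraries spanned 56.4% to 58.5%. Wilson 95% intervals of a single library reached 0.551 to 1.23 points to each side, for counting error only and taking each read as independent, which PCR reads without molecular identifiers are not.

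Averaged over environments the share was 8.8 points higher in VM cells, 7.33 in clean and 10.3 in dirty mice. The two-sided exact permutation test with labels exchanged within environment gave p = 0.01, the smallest that its 200 arrangements allow, and adjusted p = 0.04 over the 4 share tests. This share is a ratio within a library, so scaling between libraries does not enter it. It shows that the counts assigned to the paralogs changed unequally, not that miR-101b-3p stayed at 1 level. How reads that fit both rows were divided is not known, and its part in this share was not tested. The difference was 5.32 points within the shallow and 12.0 within the deep libraries, and in each class every VM library lay above every TN library. Pairing libraries by replicate number left out Clean_VM replicate 1, since Clean_TN had no replicate 1 here. It gave 9.73 points, as did leaving that library out without pairing. The paired exact permutation test gave p = 0.0625, the smallest that it allows. Between dirty and clean mice the share differed by 2.06 points (exact permutation p = 0.25, adjusted p = 0.333).

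**Figure D2:**
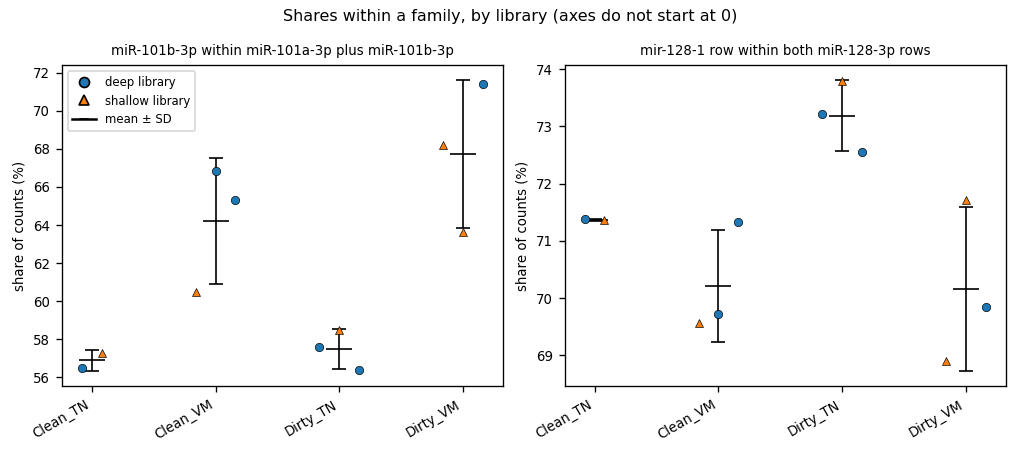
Left, the share of miR-101b-3p in the summed counts of miR-101a-3p and miR-101b-3p; right, the share of the mir-128-1 row in the summed counts of both miR-128-3p rows (y axes in percent, not starting at 0). Points are libraries by group, shaped by depth as in the plot of levels, with mean ± SD; on the left TN libraries lie between 56.36% and 58.47% and VM libraries between 60.47% and 71.39%.

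mmu-miR-128-3p showed no called difference between the subsets. On the row of hairpin mir-128-1 it stood at 1573 and 1330 CPM in Clean_TN, 1639, 1558 and 1940 in Clean_VM, 4182, 2519 and 1694 in Dirty_TN and 1397, 2191 and 1745 in Dirty_VM. On the row of mir-128-2 it stood at 631 and 534 CPM in Clean_TN, 717, 676 and 780 in Clean_VM, 1530, 894 and 641 in Dirty_TN and 630, 864 and 753 in Dirty_VM. Dirty_TN replicate 1 was the highest library on both rows, and the spread within Dirty_TN (2799 ± 1267 CPM, SD, n = 3, on the mir-128-1 row) was wider than in any other group. In clean mice the mir-128-2 row did not overlap between VM and TN cells, and the mir-128-1 row did. How many of all rows lack such overlap is not given here.

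Averaged over environments the log2 changes between VM and TN cells were -0.21 ± 0.21 on the mir-128-1 row (95% interval -0.66 to 0.24, edgeR adjusted p = 0.491) and -0.07 ± 0.20 on the mir-128-2 row (-0.50 to 0.37, adjusted p = 0.827). In clean mice they were 0.24 and 0.32, and in dirty mice -0.66 (unadjusted p = 0.0366, edgeR adjusted p = 0.169) and -0.45. Their interactions, -0.89 ± 0.42 (adjusted p = 0.293) and -0.76 ± 0.40 (adjusted p = 0.348), did not pass. Without Dirty_TN replicate 1 the dirty-mouse values were -0.28 and -0.07 and the interactions -0.40 and -0.27. The dirty-mouse change of the mir-128-1 row passed without Dirty_TN replicate 3 (-0.85, edgeR adjusted p = 0.017) and without the filter on low counts (-0.65, adjusted p = 0.0496). Summed over both hairpins miR-128-3p had -0.20 ± 0.20 averaged over environments (edgeR adjusted p = 0.502) and an interaction of -0.88 ± 0.41 (adjusted p = 0.302).

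The next comparison asked whether members differ between dirty and clean mice. For miR-128-3p in TN cells the log2 changes were 0.95 ± 0.32 on the mir-128-1 row and 0.81 ± 0.31 on the mir-128-2 row (unadjusted p = 0.0115 and 0.0199). Neither passed (edgeR adjusted p = 0.559 for both), although all 3 Dirty_TN libraries lay above both Clean_TN libraries on each row. These rows carry the same miRNA, and the share of all rows that separate likewise is not given here. Without Dirty_TN replicate 1 the values were 0.40 and 0.27 (adjusted p = 0.974 for both), and without Dirty_TN replicate 3, 0.98 with adjusted p = 0.0353 on the mir-128-1 row and 0.83 with adjusted p = 0.0641 on the other. In VM cells the same rows had 0.05 and 0.05, with 95% intervals of -0.55 to 0.66 and -0.53 to 0.63. The median over all 545 rows was 0.16 in TN cells under TMM and -0.03 under library totals, where the mir-128-1 row had 0.71 and the mir-128-2 row 0.57.

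For miR-101a-3p dirty minus clean was 0.06 ± 0.34 in TN and -0.27 ± 0.31 in VM cells, and for miR-101b-3p 0.09 ± 0.25 and -0.03 ± 0.22, where the TN values of both and the VM value of miR-101b-3p changed sign under library totals. By edgeR 0 of the 5 rows were called in TN cells, in VM cells or averaged over both, as were 0.0% of all rows. DESeq2 called 0 of the 5 as well, among 3 rows called in TN cells (0.55% of all rows), 19 in VM cells (3.49%) and 1 in the average (0.183%). At an unadjusted p under 0.05 edgeR had 38 rows in TN cells (6.97% of all rows), 2 of them the miR-128-3p rows, and 81 in VM cells (14.9%), none a member. In the average it had 28 (5.14%), 1 of them the mir-128-1 row (0.50 ± 0.21, unadjusted p = 0.0346), a value that was 0.20 without Dirty_TN replicate 1. For the interaction 0 of the 5 and 0.0% of all rows were called, with 93 rows (17.1%) and no member at an unadjusted p under 0.05. DESeq2 called 41 rows for the interaction (7.52% of all rows), none a member.

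**Figure D3:**
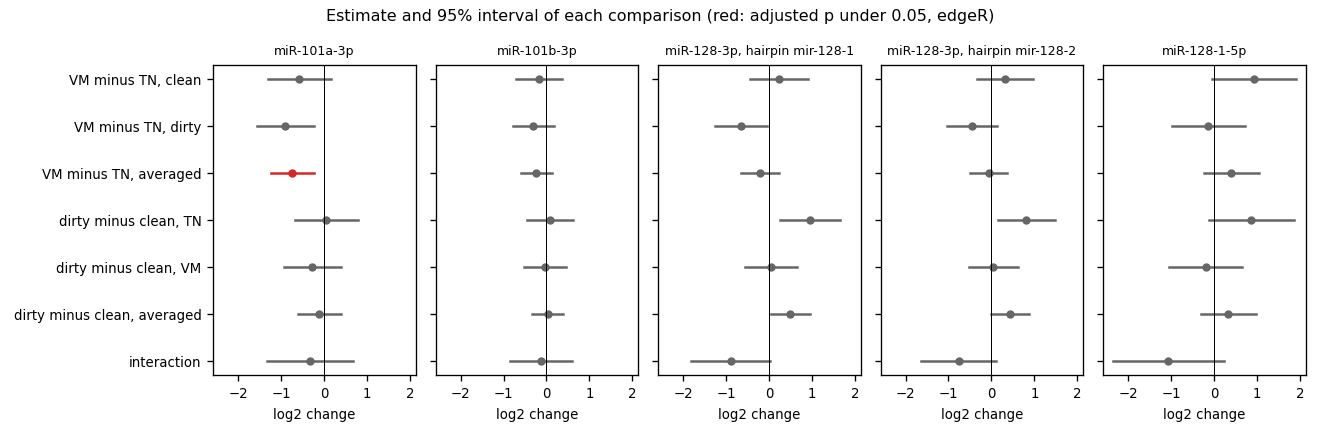
Log2 change (x axis) with its 95% interval for each row (panels) in each comparison (y axis), from the edgeR fit over 11 libraries. Red marks an adjusted p under 0.05, which held for miR-101a-3p in the averaged VM and TN comparison (-0.74).

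The hairpin rows of miR-128-3p moved together but not in a fixed ratio. The mir-128-1 row held 71.4% of the miR-128-3p counts in both Clean_TN libraries and 69.6%, 69.7% and 71.3% in Clean_VM. It held 73.2%, 73.8% and 72.5% in Dirty_TN and 68.9%, 71.7% and 69.8% in Dirty_VM. Dirty_TN libraries were the highest and did not overlap with any other group, and Wilson 95% intervals reached 0.412 to 1.13 points to each side. These intervals take each read as independent and do not cover how shared reads were divided between the rows. The share of the mir-128-1 row was looked at after the data were seen and was not tested. Reads of the shared mature sequence cannot be assigned to a hairpin by that sequence, so the rows are 2 views of 1 miRNA, and log2 levels on them correlated at Pearson's r = 0.98 over the 11 libraries. miR-101a-3p and miR-101b-3p correlated at 0.92, also over 11 libraries that carry the group differences and the depth of each library.

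The passenger arms were rare. mmu-miR-128-1-5p stood at 2.37 and 3.61 CPM in Clean_TN, 2.95, 6.24 and 7.22 in Clean_VM, 5.91, 6.35 and 3.90 in Dirty_TN and 5.65, 5.34 and 3.90 in Dirty_VM. VM and TN libraries overlapped in each environment. Its log2 change between VM and TN cells was 0.94 ± 0.46 in clean mice (edgeR adjusted p = 0.18), -0.13 ± 0.40 in dirty mice and 0.41 ± 0.30 averaged (adjusted p = 0.357), with an interaction of -1.07 ± 0.60 (adjusted p = 0.369). Without Clean_VM replicate 3 the clean value of miR-128-1-5p was 0.50 and the averaged value 0.18, and without Clean_TN replicate 2 they were 0.57 and 0.25. Dirty minus clean was 0.87 ± 0.46 in TN cells (adjusted p = 0.606) and -0.19 ± 0.39 in VM cells. In TN cells all 3 Dirty_TN libraries lay above both Clean_TN libraries, and the share of all rows that separate likewise is not given here.

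As a share of all miR-128-1-5p and miR-128-3p counts, miR-128-1-5p made up 0.103% to 0.194% in TN and 0.125% to 0.279% in VM libraries. The lowest, in Dirty_TN replicate 1, had a Wilson 95% interval of 0.0775% to 0.138%, and the widest interval, 0.178% to 0.434%, was that of Dirty_VM replicate 1. VM cells were 0.0617 points higher on average (exact permutation p = 0.17, adjusted p = 0.333), and dirty mice differed from clean mice by -0.00924 points (exact permutation p = 0.83, adjusted p = 0.83). The 5p partner of the other hairpin, miR-128-2-5p, had 4 counts in all, in 2 Dirty_TN libraries. miR-101a-5p had 9 counts in 3 libraries, miR-101b-5p had none in any library and miR-101c had 14.5 estimated counts in 8 libraries. None of these 4 was abundant enough to be tested.

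Seeds were compared among the 1679 of 1978 mature names that had a RefSeq sequence. The search looked for the same bases 2 to 8 as a member, or for a member's bases 2 to 8 within bases 1 to 9. Only miR-128-2-5p shared bases 2 to 8 exactly, with miR-128-1-5p. The seed of miR-128-3p stood 1 base further in within miR-27a-3p and miR-27b-3p, which are shown with that stretch in capitals because they are the abundant carriers of it in these cells, and at the very 5′ end of miR-216a-3p, which had no count.
miR-128-3p: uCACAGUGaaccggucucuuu
miR-27a-3p: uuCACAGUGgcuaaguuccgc
miR-27b-3p: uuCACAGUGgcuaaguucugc

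The erythroid miR-144-3p held the miR-101b-3p seed and had at most 7 counts in a library. miR-27a-3p, part of the miR-23, miR-27 and miR-24 clusters, averaged 3277 ± 42.5 CPM (SD over 2 libraries) in Clean_TN, 1742 ± 144 over 3 in Clean_VM, 2944 ± 164 in Dirty_TN and 2436 ± 391 in Dirty_VM. In clean mice it fell by 0.91 ± 0.18 on the log2 scale in VM cells (edgeR adjusted p = 0.00527), and in dirty mice it had -0.27 ± 0.17 (adjusted p = 0.334). Averaged over environments it fell by 0.59 ± 0.12 (edgeR adjusted p = 0.00375). miR-27b-3p fell by 0.65 ± 0.17 in clean mice (edgeR adjusted p = 0.0187) and had -0.05 ± 0.15 in dirty mice, a value that turned above 0 under library totals. Averaged it fell by 0.35 ± 0.11 (edgeR adjusted p = 0.0401), a call that was lost without the filter (adjusted p = 0.106), with the replicate block (0.0754) or with the depth term (0.0579). It was also lost without Clean_TN replicate 2 (0.0925) or 3 (0.0732), Clean_VM replicate 1 (0.0559), Dirty_TN replicate 2 (0.0668), or Dirty_VM replicate 1 (0.0601) or 2 (0.0614). The clean-mouse call of miR-27b-3p was lost without Clean_TN replicate 2 (adjusted p = 0.0767) or 3 (adjusted p = 0.0811) and with replicate numbers as a block (adjusted p = 0.0518). The interactions of miR-27a-3p and miR-27b-3p, 0.64 ± 0.25 (adjusted p = 0.233) and 0.60 ± 0.22 (adjusted p = 0.227), did not pass. Without Dirty_TN replicate 3 both did (0.87 and 0.83, adjusted p = 0.0327 and 0.0171). In that fit 14.5% of all rows passed for the interaction, against 0.0% in the main fit. Of the 7 relatives fixed for this description, miR-27a-3p and miR-27b-3p were tested.

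Rows with the most similar pattern were taken by Pearson's r of log2 levels over the 11 libraries, among 259 rows with a mean of 10 CPM or more. For miR-101a-3p these were miR-3964 (r = 0.93, Spearman's rho = 0.77), miR-30e-5p (0.93 and 0.80) and miR-1839-5p (0.88 and 0.86). miR-30e-5p, of the miR-30 family, averaged 1844 and 1664 CPM in Clean_TN and Dirty_TN and 1051 and 1118 in Clean_VM and Dirty_VM. For miR-101b-3p they were miR-1839-5p (0.94 and 0.96), miR-378d (0.93 and 0.85) and miR-185-5p (0.89 and 0.79). Both miR-128-3p rows had miR-27b-5p, the other arm of the miR-27b hairpin, as the most similar row by r (r = 0.93 and rho = 0.94 on the mir-128-1 row, 0.89 and 0.88 on the other) and miR-150-3p as the next (0.88 and 0.85, then 0.86 and 0.91). By rho miR-150-3p came first on the mir-128-2 row. The third was a let-7c-5p row (hairpin let-7c-2, r = 0.85, rho = 0.64 and place 13 by rho) for the mir-128-1 row and a let-7a-5p row (hairpin let-7a-1, r = 0.85, rho = 0.87) for the mir-128-2 row. miR-27b-5p averaged 46.3 ± 19.9 CPM in Dirty_TN and 27.7 ± 1.37, 28.5 ± 4.38 and 29.1 ± 8.63 in Clean_TN, Clean_VM and Dirty_VM. For miR-128-1-5p the correlations were lower, 0.72 with miR-3474 (rho = 0.83) and 0.70 with miR-409-3p (0.78) and miR-148a-3p (0.66). These correlations describe 11 libraries that share depth, scaling and group differences.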

How the data were processed

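Small RNA was sequenced in 11 libraries of sorted CD8+ T cells. The deposited table gives estimated counts (expected counts) per mature miRNA and hairpin, with 71.1% of the values above 0 exactly whole (no tolerance) and 60.8% of all values at 0. The submitters' processing notes name mm10. The aligner, the counter and the rule for shared reads are not given in the sources used here. Rows with the same name and identical values were kept once (120 removed, 0.889% of counts), leaving 2008 rows. Counts were rounded, filtered with filterByExpr on the 4 groups (545 rows) and fitted in edgeR 4.0.16 (quasi-likelihood, robust, TMM, 1 mean per group, all 11 libraries). Tests were two-sided, with Benjamini-Hochberg adjustment over the 545 rows and a threshold of 0.05. SE is the absolute log2 change over the square root of F. The script was tested on simulated data. The members, lists and depth classes were chosen with earlier results of these data known. Named miRNAs are all member rows, 7 fixed relatives, names sharing a member's seed, and the 3 most correlated rows (10 CPM or more, prior count 2) per member row. DESeq2 1.42.0, other scalings, no filter, summed rows, a replicate block, a depth term, fits of the compared groups alone and leaving out each library were alternatives.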

Additional observations from a re-analysis of the deposited data

Results flagged for a closer look

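miR-27a-3p, which carries the miR-128-3p seed 1 base further in, lay lower in every Dirty_TN library (2789 to 3116 CPM) than in both Clean_TN libraries (3247 and 3307 CPM), and higher in every Dirty_VM library (2013 to 2782 CPM) than in every Clean_VM library (1621 to 1902 CPM). Dirty minus clean was -0.16 ± 0.18 in TN cells (edgeR adjusted p = 0.835) and 0.48 ± 0.17 in VM cells (adjusted p = 0.201), and neither passed. The separation in TN cells depends on the scaling: as a share of its library total, miR-27a-3p was 0.350% in Dirty_TN replicate 3 and 0.346% in Clean_TN replicate 3. This row was flagged from these same data, and the share of all rows that separate likewise is not given here. The interaction was 0.64 on the log2 scale (edgeR adjusted p = 0.233, between 0.0327 and 0.448 over its alternatives), so the difference did not pass, and the value of 0.0327 came without Dirty_TN replicate 3. Leaving out that library brought 14.5% of all rows past the threshold for the interaction, against 0.0% in the main fit.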

How the results depend on the processing

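Over 35 results on member rows (5 rows, 7 comparisons), 576 of 662 alternative values kept their direction and side of the threshold, 74 changed sign, and none of those 74 passed. The cause was not tested. For miR-101a-3p in TN cells, dirty minus clean (0.06) became -0.027 with DESeq2, with its size factors in edgeR and with only the compared groups fitted. It became -0.128 with library totals, -0.013 without the filter and with rows summed per miRNA, and -0.01 with the miR-101 rows summed. For miR-101b-3p dirty minus clean became -0.097 (library totals) and -0.01 (miR-101 rows summed) in TN cells and 0.079 (library totals) in VM cells. Averaged over subsets it became -0.037 (DESeq2, and its size factors), -0.009 (library totals), -0.023 (no filter), -0.044 (rows summed per miRNA) and -0.027 (miR-101 rows summed), and its interaction became 0.176 (library totals). For miR-128-3p in VM cells dirty minus clean became -0.012 on the mir-128-1 row and -0.015 on the mir-128-2 row with DESeq2 and with its size factors, -0.005 and -0.01 without the filter, and -0.049 on the summed row. miR-27b-3p in dirty mice became 0.007 with library totals. The averaged VM and TN change of miR-101a-3p became -0.447 with the miR-101 rows summed, an alternative added after seeing the data, and did not pass. The number of member rows called between VM and TN cells in dirty mice was 0, and became 1 with DESeq2 (16.1% of all rows called), 2 without the filter (5.67%) and 1 with the depth term (13.4%). The share of miR-128-1-5p, VM minus TN, was -0.0139 points within the shallow libraries.

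Whether replicate numbers pair the libraries is not settled. Deviations of 15 same-numbered pairs correlated at -0.554 to 0.416, and 2 libraries correlated best with their own number. Deviations from means of 2 or 3 libraries must take opposite signs within a group, so these correlations cannot exclude a pairing. With the replicate block dirty minus clean became -0.09 for miR-101a-3p in TN cells, and -0.024, 0.002 and -0.011 for miR-101b-3p (TN, VM and averaged), with an interaction of 0.026. Pairing same-numbered libraries gave 9.73 points for the share of miR-101b-3p, VM minus TN (exact permutation p = 0.0625). That pairing left out Clean_VM replicate 1. For the share of miR-128-1-5p, dirty minus clean, pairing gave 0.00289 points and left out Dirty_TN replicate 1. Leaving out these libraries without pairing gave the same 9.73 and 0.00289 points. The replicate block in edgeR changed the count of member rows called in no comparison.

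Leaving out each library in turn, the averaged change of miR-101a-3p ran from -0.957 to -0.694, and the member rows called ran from 0 to 1 for VM against TN (clean, dirty and averaged) and for dirty against clean in TN cells, where the share of all rows called ran from 5.4% to 23.8%, from 8.18% to 18.7%, from 15.3% to 28.4% and from 0.0% to 5.56%. Other results that changed sign were, for miR-101a-3p, dirty minus clean in TN (-0.163 to 0.018) and VM cells (-0.686 to 0.003) and the interaction (-0.667 to 0.024). For miR-101b-3p they were dirty minus clean for TN (-0.135 to 0.077), for VM (-0.292 to 0.074) and averaged (-0.138 to 0.043), and the interaction (-0.307 to 0.125). For miR-128-1-5p they were VM minus TN in dirty mice (-0.31 to 0.077), dirty minus clean in VM cells (-0.641 to 0.144) and its share, dirty minus clean (-0.0337 to 0.0123 points). On the mir-128-1 row they were VM minus TN in clean mice (-0.057 to 0.325) and dirty minus clean in VM cells (-0.264 to 0.239), and on the mir-128-2 row VM minus TN averaged (-0.215 to 0.068) and dirty minus clean in VM cells (-0.203 to 0.193). miR-27b-3p in dirty mice ran from -0.131 to 0.064. Where Clean_TN was left with 1 library, that library was assumed to vary like the other groups. Groups of 2 or 3 libraries, a 6.24-fold range of depth and 11 to 72 counts of miR-128-1-5p limit these values.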
